A study of Sus scrofa with 6 samples.

Results

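The signals of 7 genes of the Wnt and Notch pathways were compared between OBGF400 and PK15 cells. The Wnt genes were the secreted antagonist SFRP1, the secreted DKK3, grouped here with the antagonists, and the receptor FZD6. The Notch genes were the ligand JAG1, the glycosyltransferase LFNG, the nuclear effector RBPJ and the target HEY2. Together they are 7 of the 6765 genes that the array's annotation table names by a single symbol. All 17 probe sets with 1 of these 7 symbols were used. The genes had been chosen with the difference between the lines already known, so their differences are given as a description and without a test.

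OBGF400 is a line of untreated porcine cells that the labels describe as olfactory bulb neuroblasts. PK15 is an established pig kidney line, also untreated, labelled as epithelial and non-neuronal and used as the somatic background. Each line was measured on 3 Affymetrix porcine expression arrays, each with labelled RNA from a pool of several of the line's 9 cultures. Both media held 10% bovine calf serum, but the base medium differed and that of PK15 also held amphotericin B, so line and medium cannot be told apart. Each line is a single cell line, so the spread between arrays is that between pools of cultures and not between animals. In bulk RNA, fewer cells that express a gene cannot be told apart from less of its RNA per cell.

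In the Wnt pathway, a secreted ligand binds a Frizzled receptor and an LRP co-receptor at the cell surface, after which beta-catenin is spared from degradation and acts with TCF and LEF factors on target genes. Secreted antagonists of the SFRP and DKK families act outside the cell on the ligand or on the co-receptor. In the Notch pathway, a ligand on one cell, such as JAG1, binds a Notch receptor on its neighbour, and proteases then release the receptor's intracellular domain, which joins RBPJ on DNA and switches on HES and HEY repressors. Both pathways are known for balancing the upkeep and the differentiation of neural progenitors, and both also act in kidney epithelium.

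The values are log2 signals, with 1 value per probe set and array. All 6 arrays shared a lowest value of 2.13, called the floor here, and an array had 25.8% to 27.3% of its probe sets at it. A gene is called at the floor of a line where all 3 arrays lay within 0.1 of that value. Pearson correlations across probe sets, which are not independent replicates, were 0.997 to 0.998 among OBGF400 arrays, 0.996 among PK15 arrays and 0.860 to 0.865 between the lines. Of 6765 genes tested, 60.8% differed between the lines by limma with Benjamini-Hochberg adjustment (adjusted p under 0.05), 23.9% higher and 36.8% lower in OBGF400. The median difference over all genes was -0.002 as deposited, 0.82 once arrays were scaled on their hybridization controls and -0.86 with poly-A controls (dap and thr) in their place, so differences of under 1 on the log2 scale depend on the scaling.

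Marker genes of the labelled cell types were checked on the same arrays. Of 21 listed neuroblast and neuron genes 11 were measured, with a median difference of 0.0. Of these NCAM1 (6.20), MAP2 (5.44) and UCHL1 (10.21) were higher and STMN1 (-1.58) lower in OBGF400. That is 27.3% higher and 9.1% lower, against 23.9% and 36.8% of all genes. The other 7 (ELAVL4, GAP43, NEFL, NEUROD1, SNAP25, STMN2 and SYT1) were at the floor in both lines. DCX, TUBB3, NES, SOX2 and PAX6, other markers of progenitors and neuroblasts, were not analysed here, and the measured genes do not set OBGF400 apart as neuroblasts. Of 13 measured fibroblast, pericyte and smooth muscle genes 12 were higher in OBGF400, with a median difference of 9.88. The log2 of their summed signal was 17.26 to 17.29 in OBGF400 and 15.05 to 15.08 in PK15, where VIM alone averaged 15.04. Of 13 measured epithelial genes 12 were lower in OBGF400, with summed signals of 6.09 to 6.17 in OBGF400 and 16.73 to 16.76 in PK15 (log2). Among astrocyte genes 1 of 7 was higher and 1 lower, among endothelial genes 1 of 8 was higher and 1 lower, and among leukocyte genes 2 of 6 were higher and 2 lower. Of the fibroblast and epithelial markers, COL3A1 (0.07) and CLDN7 (-0.50) were not called, and VIM was higher by only 0.11. Most of these markers differed between the lines together with the genes given here, and their part in those differences was not tested.

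Among the Wnt genes, OBGF400 had high signals of SFRP1 and DKK3 and a signal near the floor for the receptor FZD6. PK15 had a high signal of FZD6, a low one of DKK3 and one near the floor for SFRP1. SFRP1, which binds Wnt ligands through a Frizzled-like cysteine-rich domain, had log2 signals of 12.89, 12.88 and 12.73 in OBGF400 and of 3.12, 2.61 and 3.13 in PK15. The mean was 12.83 ± 0.09 in OBGF400 and 2.96 ± 0.30 in PK15 (SD, n = 3 each), a difference of 9.87 on the log2 scale. The arrays of the lines lay far apart, and those of PK15 lay within about 1 log2 unit of the floor. The second SFRP1 probe set gave 13.20, 13.08 and 13.09 in OBGF400 and 2.22, 2.35 and 2.21 in PK15, so both probe sets showed the same pattern.

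DKK3, a divergent dickkopf family member whose effect on Wnt signalling is debated, had 1 probe set. Its log2 signals were 14.06, 13.86 and 13.81 in OBGF400 and 5.30, 4.77 and 4.60 in PK15. It was the only one of the 3 Wnt genes with a signal well clear of the floor in both lines, with means of 13.91 ± 0.13 in OBGF400 and 4.89 ± 0.36 in PK15 (SD, n = 3 each) and a difference of 9.02.

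FZD6, a Frizzled receptor known mainly for planar cell polarity, had log2 signals of 2.52, 2.47 and 2.47 in OBGF400 and of 12.46, 11.51 and 12.01 in PK15. The means were 2.49 ± 0.03 in OBGF400 and 11.995 ± 0.475 in PK15 (SD, n = 3 each), a difference of -9.51. Its second probe set was dimmer, with 2.13, 2.73 and 2.93 in OBGF400 and 9.41, 7.70 and 8.35 in PK15. On both FZD6 probe sets PK15 replicate 1 was the highest and replicate 2 the lowest array, and that SD of 0.475 in PK15 compares with a median SD of 0.096 between arrays of a line among probe sets averaging 10 to 12.

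**Figure D1:**
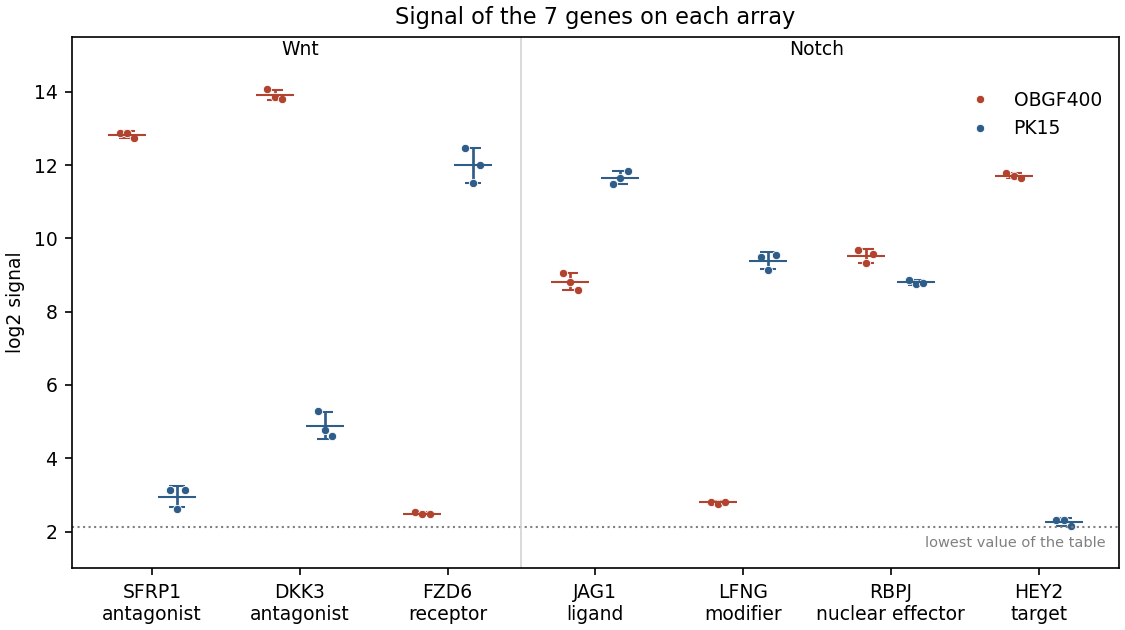
Log2 signal (vertical axis) of the probe set standing for each of the 7 genes, with 3 OBGF400 arrays (red, left) and 3 PK15 arrays (blue, right) per gene. Points are arrays, horizontal bars are means and whiskers are SDs (n = 3), and the dotted line is the floor of 2.13. SFRP1, DKK3 and HEY2 are high in OBGF400, FZD6 and LFNG are high in PK15, and JAG1 and RBPJ have clear signals in both lines.

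Among the Notch genes, both lines had signals of the ligand JAG1 and of RBPJ, whereas the modifier LFNG was seen clearly in PK15 alone and the target HEY2 in OBGF400 alone. JAG1, a membrane-bound ligand, had log2 signals of 9.06, 8.81 and 8.59 in OBGF400 and of 11.48, 11.64 and 11.84 in PK15. The means were 8.82 ± 0.24 in OBGF400 and 11.65 ± 0.18 in PK15 (SD, n = 3 each), a difference of -2.83, which is a 7.12-fold lower linear signal. Both lines stood well above the floor here, and 11.2% of all genes had a larger difference in size. The 2 other JAG1 probe sets carried little signal, with at most 2.35 and 2.13 in OBGF400 and at most 3.21 and 2.17 in PK15.

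LFNG, the lunatic fringe enzyme that extends the O-fucose sugars of Notch receptors and so alters their response to ligands, had log2 signals of 2.81, 2.76 and 2.81 in OBGF400 and of 9.49, 9.13 and 9.55 in PK15. The means were 2.79 ± 0.03 in OBGF400 and 9.39 ± 0.23 in PK15 (SD, n = 3 each), a difference of -6.60. A second LFNG probe set gave 3.27, 2.66 and 3.91 in OBGF400 and 5.28, 5.25 and 5.18 in PK15. The third gave 2.13, 2.24 and 2.24 in OBGF400 and 2.30, 3.00 and 3.34 in PK15. All 3 probe sets were lower in OBGF400, but their differences were -6.60, -1.95 and -0.68, so the size rests on the brightest.

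RBPJ, the DNA-binding protein through which Notch acts on its targets, differed least among the 7 genes. Its log2 signals were 9.68, 9.32 and 9.58 in OBGF400 and 8.87, 8.75 and 8.79 in PK15. The means were 9.53 ± 0.19 in OBGF400 and 8.81 ± 0.07 in PK15 (SD, n = 3 each), a difference of 0.72 or a 1.65-fold higher linear signal. The 2 other RBPJ probe sets differed by 0.48 and 1.42 in the same direction, and their arrays did not overlap between the lines either. Of all genes, 44.98% had a larger difference in size, and after scaling on the poly-A controls the RBPJ difference was -0.13, so its direction depends on the scaling.

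HEY2, a basic helix-loop-helix repressor that Notch switches on in heart and vessels among other tissues, had log2 signals of 11.78, 11.69 and 11.66 in OBGF400 and of 2.32, 2.32 and 2.14 in PK15. The means were 11.71 ± 0.07 in OBGF400 and 2.26 ± 0.10 in PK15 (SD, n = 3 each), a difference of 9.45 against a level near the floor. A second HEY2 probe set showed the same pattern, with 9.89, 10.18 and 9.58 in OBGF400 and 2.55, 2.25 and 2.57 in PK15. The third gave 2.37 on all 6 arrays, and such an SD of 0 is no measure of precision.

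For each of the 7 genes the arrays of OBGF400 and PK15 did not overlap, as for 66.9% of all genes, and nothing is read from this since the genes were chosen on the same contrast. Of the 17 probe sets 15 did not overlap, against 50.5% of all probe sets. The exceptions were the dimmest JAG1 probe set and the HEY2 probe set with 1 value throughout. No filter on low values was applied, and none of the 7 genes was at the floor in both lines.

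**Figure D2:**
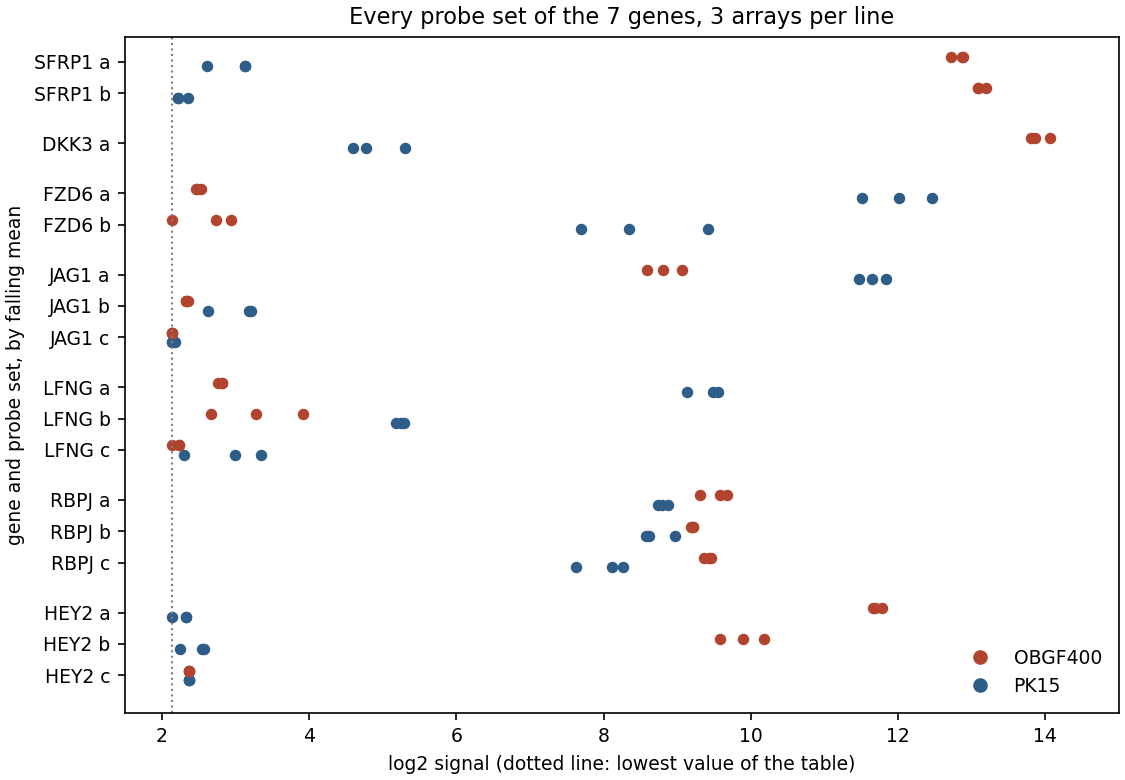
Log2 signal (horizontal axis) of all 17 probe sets of the 7 genes, with a row per probe set, lettered by falling mean within a gene, and 3 points per line (OBGF400 red above, PK15 blue below). The dotted line is the floor of 2.13. Both SFRP1 probe sets and the brighter 2 of HEY2 separate the lines widely, whereas the dim probe sets of JAG1 and LFNG separate them little.

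Adding 32 to the linear signals before taking logs damps differences against dim levels and cannot turn their direction where the arrays do not overlap. The differences were then 7.52 for SFRP1, 7.96 for DKK3, 6.52 for HEY2, -6.77 for FZD6, -4.17 for LFNG, -2.75 for JAG1 and 0.68 for RBPJ. In proportion, those of JAG1, RBPJ and DKK3, whose lower line stood farthest above the floor, were damped least.

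**Figure D3:**
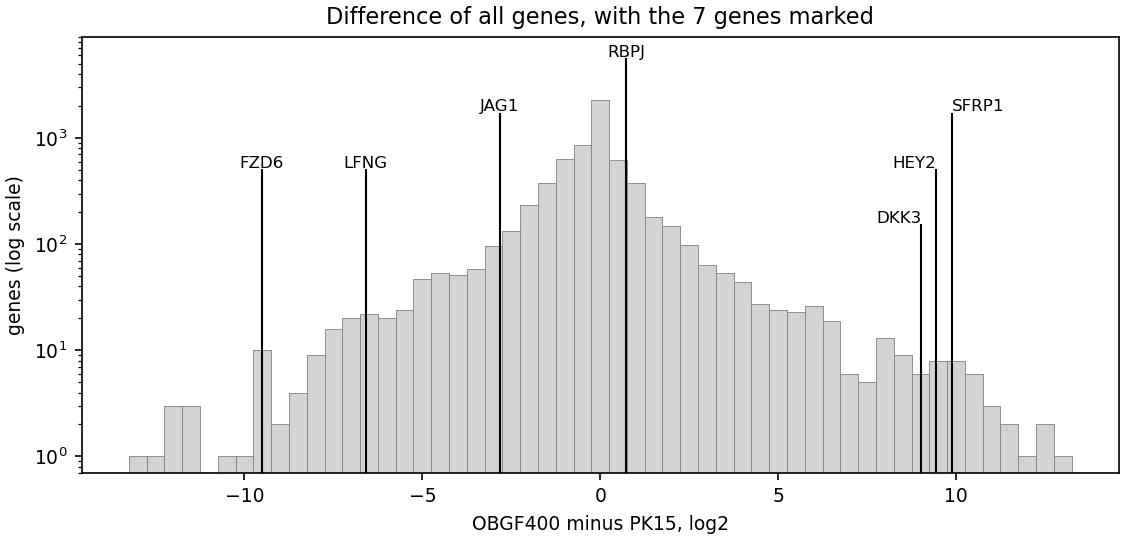
Histogram of the difference OBGF400 minus PK15 (log2, horizontal axis) over 6765 genes, with the number of genes on a log scale and the 7 genes marked by vertical lines. SFRP1, HEY2 and DKK3 lie in the upper tail, FZD6 and LFNG in the lower tail, and RBPJ at 0.72 near the bulk of the genes.

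The other measured genes of the Wnt pathway were then set beside these, from lists arranged by role. Of 131 listed Wnt genes 32 were measured, with 7 called higher in OBGF400, 10 called lower and 15 without a call (limma, adjusted p under 0.05), which is 53.1% called against 60.8% of all genes. Their median difference was -0.002, the same as that of all genes. Scaling on the hybridization controls left 6 of them lower and 24 higher, against 1259 lower and 4487 higher of all 6765 genes. Scaling on the poly-A controls left 25 lower and 4 higher, against 5219 lower and 763 higher of all genes. Genes on the floor in OBGF400 and PK15 alike are part of these counts, and such a scaling moves them by a constant.

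Of 19 other listed Wnt antagonists only 3 were measured, and 0 of these were called (0.0%, against 60.8% of all genes). DKK1, which blocks the LRP co-receptors, and APCDD1, a membrane-bound inhibitor, were at the floor in both lines. DKK2, a relative of DKK1, had 8.24 ± 0.05 in OBGF400 and 8.18 ± 0.27 in PK15 (SD, n = 3 each), a difference of 0.064 with an adjusted p of 0.821. OBGF400 replicates 1 and 2 and PK15 replicate 3 had 1 identical DKK2 value of 8.22, so these SDs are no full measure of precision. Its second probe set was at the floor in both lines. These 3 genes, not called, were named after their values were seen. The 2 measured ligand genes, WNT10B and NDP, were at the floor in both lines and were likewise named afterwards.

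The list of other Wnt receptor genes also held WLS, which acts in ligand secretion and not in reception. The 5 measured genes of this list went both ways. In OBGF400, 3 had higher values (60.0%, WLS among them), 1 had lower values (20.0%), and FZD2 was at the floor in both lines. Among all genes these shares were 23.9% and 36.8%. The co-receptor LRP6 had log2 signals of 8.45, 8.74 and 8.57 in OBGF400 and of 4.77, 4.10 and 4.31 in PK15, a difference of 4.19 (adjusted p = 9.23e-05). The receptor FZD4 was higher by 3.35 (8.81 ± 0.07 in OBGF400 and 5.46 ± 0.32 in PK15, SD, n = 3 each, adjusted p = 0.000126). WLS, which carries Wnt ligands to the cell surface for secretion, was higher by 1.93 (adjusted p = 1.61e-06). FZD5 was lower, at a difference of -1.50, with 8.77 ± 0.31 in OBGF400 and 10.27 ± 0.21 in PK15 (SD, n = 3 each, adjusted p = 0.00257). FZD6 and FZD5 were thus both lower and FZD4 higher in OBGF400, and both FZD4 and both LRP6 probe sets pointed the same way. These 4 calls kept their direction under both control scalings. Above the median level of all genes (7.69), 1 gene of this list was higher and 1 lower, against 1097 and 1744 of 3382 genes.

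Inside the cell, 3 of 11 measured genes of Wnt signal transduction were higher (27.3%, against 23.9% of all genes) and 4 lower (36.4%, against 36.8%). Only 2 were lower without OBGF400 replicate 1, OBGF400 replicate 2 or PK15 replicate 3. The kinase MAP3K7 was higher by 1.18 (adjusted p = 0.0196), but without OBGF400 replicate 1, 2 or 3 it was not called, at differences of 1.11, 1.22 and 1.21, nor under poly-A control scaling (0.33, adjusted p = 0.138). CSNK1A1, the casein kinase that primes beta-catenin for degradation, was higher by 0.95 (adjusted p = 0.000161), and its 3 probe sets disagreed, at 0.95, 1.196 and -1.85. The probe set at -1.85 was dim, with means of 2.91 in OBGF400 and 4.76 in PK15. The CSNK1A1 call was lost with poly-A controls as the scale (0.096) and with its probe sets averaged (0.098). RHOA, a small GTPase, differed by 0.084 (adjusted p = 0.00519), which became -0.77 under poly-A control scaling. CSNK1D was lower, at -1.48 (adjusted p = 0.000868), with its other probe sets at -0.59 and -0.24 and the average at -0.77. CTNNBIP1, an inhibitor of beta-catenin, differed by -0.79 (adjusted p = 0.00632), by -0.23 with its probe sets averaged and by 0.034 under hybridization control scaling. The other CTNNBIP1 probe sets lay near the floor, with line means of 2.13 to 2.20. The tankyrase TNKS2 differed by -0.42 (adjusted p = 0.0182), and it was not called when OBGF400 replicate 1 (-0.36), OBGF400 replicate 2 (-0.43), PK15 replicate 2 or PK15 replicate 3 (-0.38 each) was left out, while hybridization control scaling gave 0.40.

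Beta-catenin itself, CTNNB1, was singled out after its values were seen. It had 12.80 ± 0.07 in OBGF400 and 13.22 ± 0.22 in PK15 (SD, n = 3 each), a difference of -0.42 (adjusted p = 0.0415). The call was lost without any 1 of the arrays other than PK15 replicate 2, at differences of -0.45 to -0.33, and hybridization control scaling gave 0.40. The 5 CTNNB1 probe sets ran between -1.27 and 1.23, with an average of -0.14.

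Of 11 measured transcription partners and common targets of the Wnt pathway, 1 was higher and 5 were lower in OBGF400, which is 9.1% and 45.5%, against 23.9% and 36.8% of all genes. TCF7L2, a TCF factor that binds beta-catenin, had log2 signals of 3.81, 3.43 and 3.25 in OBGF400 and of 8.43, 8.06 and 7.24 in PK15, a difference of -4.41 (adjusted p = 0.000491). Its second probe set was lower too, at a difference of -1.35, and TCF7L2 differed by -2.88 with both averaged and by -2.66 with 32 added. The corepressor CTBP2 (-2.04, adjusted p = 1.46e-05) and the target MYC (-1.68, adjusted p = 0.000633) were lower, and FOSL1, an AP-1 subunit, was higher (1.55, adjusted p = 0.00152). The other 2 lower genes, JUN (-1.09) and PPARD (-1.31), stand outside the naming rule and were named after their values were seen. JUN was not called under hybridization control scaling (-0.27), and PPARD differed by -0.44 with its probe sets averaged. The other PPARD probe sets had 2.13 and 2.63 on every array. Neither LEF1 (OBGF400 8.47 ± 0.28, PK15 8.78 ± 0.02) nor TCF7L1 (OBGF400 7.59 ± 0.06, PK15 7.75 ± 0.23, SD, n = 3 each) was called (adjusted p = 0.159 and 0.366). Without PK15 replicate 2, 2 genes of this group were called higher.

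**Figure D4:**
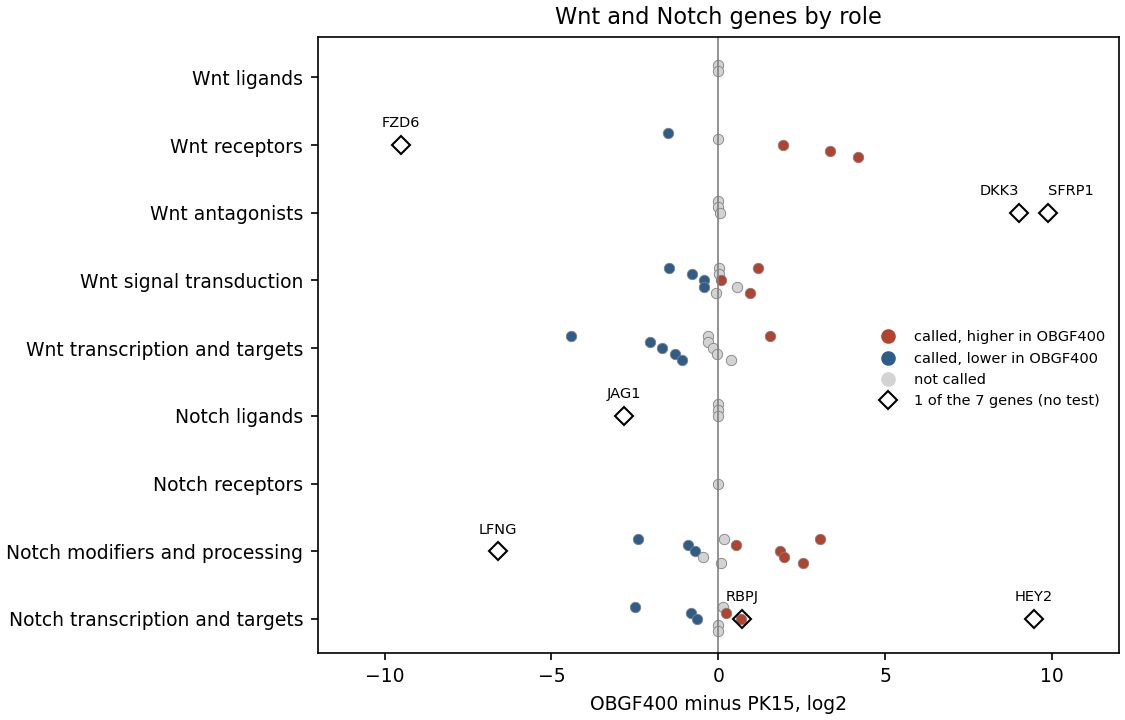
Difference OBGF400 minus PK15 (log2, horizontal axis) of the measured Wnt and Notch genes, in a row per role, with genes called higher in red, called lower in blue and not called in grey (limma, adjusted p under 0.05). Open diamonds are the 7 genes, for which no test result is given. The other antagonists and ligands lie at or near 0, and all of them but DKK2 were at the floor in both lines. Wnt receptors and Notch processing genes spread to both sides.

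Of 68 listed Notch genes 23 were measured, with 7 higher, 6 lower and 10 not called, which is 56.5% called against 60.8% of all genes. The median difference was 0.00. With hybridization control scaling 2 of these were lower and 16 higher, and with poly-A control scaling 17 were lower and 4 higher. The ligand DLL4, the microfibril proteins MFAP2 and MFAP5, which can bind Notch, and the receptor NOTCH4 were at the floor in both lines. NOTCH1, NOTCH2 and NOTCH3 were not analysed here.

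Genes that modify or cut Notch receptors were called in both directions, with 5 of 11 higher (45.5%, against 23.9% of all genes) and 3 lower (27.3%, against 36.8%) in OBGF400. Above the median level of all genes (7.69), 0 of this group were higher and 2 lower, since the 5 higher genes lay below it. Of the 3382 genes above that level, 1097 were higher and 1744 lower. PSEN2, a catalytic subunit of gamma-secretase, had 7.31 ± 0.14 in OBGF400 and 4.27 ± 0.64 in PK15 (SD, n = 3 each), a difference of 3.04 (adjusted p = 0.00163) and of 1.87 with 32 added. The protease ADAM10, which cuts the ligand-bound receptor, was higher by 2.54 (adjusted p = 0.00117), and by 1.53 with 32 added. POGLUT1, which adds O-glucose to Notch, was higher by 1.97 (adjusted p = 0.000759) and on both of its probe sets. POFUT1, which adds the O-fucose that LFNG extends, and the protease ADAM17 were the other 2 higher genes and were named after their values were seen. POFUT1 differed by 0.53, which became -0.33 under poly-A control scaling and 0.83 with its probe sets averaged. ADAM17 differed by 1.84, with its 4 probe sets between -0.95 and 3.63 and an average of 1.13.

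FBXW7, the ubiquitin ligase subunit that marks the Notch intracellular domain for degradation, was lower, with 9.20 ± 0.24 in OBGF400 and 11.59 ± 0.01 in PK15 (SD, n = 3 each), a difference of -2.40 (adjusted p = 0.000125). Its other 4 probe sets differed by -1.37 to 0.032, and the average over the 5 was -0.79. PSENEN, another gamma-secretase subunit, differed by -0.69 (adjusted p = 0.00487), which became 0.13 under hybridization control scaling. DTX3L, a deltex family ubiquitin ligase, differed by -0.90 (adjusted p = 0.0475), by -0.28 with 32 added and by -0.081 under hybridization control scaling, where it was not called (adjusted p = 0.7). It was also not called when any OBGF400 array was left out (-0.96, -0.70 and -1.05 without replicates 1, 2 and 3), nor without PK15 replicate 1 (-0.86) or PK15 replicate 2 (-0.75). Within this group the values of LFNG were thus lower in OBGF400, while those of POFUT1, which adds the sugar that LFNG extends, were higher as deposited.

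Among 8 measured Notch transcription partners and targets, 2 were higher (25.0%, against 23.9% of all genes) and 3 lower (37.5%, against 36.8%) in OBGF400. Quantile normalization gave 5 higher and 3 lower, against 1681 and 2523 of all 6765 genes. The called genes then included MAML3 and RITA1, whose deposited values lay at 2.22 to 2.26 on all 6 arrays. HES1, the only other HES or HEY target with a named probe set here, had log2 signals of 8.57, 8.85 and 9.53 in OBGF400 and of 11.65, 11.18 and 11.60 in PK15. The difference was -2.49 (adjusted p = 0.00179), so HES1 was lower in OBGF400, where HEY2 was higher, and both lines had a clear HES1 signal. The corepressors CIR1 (-0.81, adjusted p = 0.000456) and NCOR1 (-0.63, adjusted p = 0.0262) were lower, and under hybridization control scaling they differed by 0.011 and 0.19. NCOR1 was not called when any OBGF400 array was left out (-0.64, -0.65 and -0.62 without replicates 1, 2 and 3), nor without PK15 replicate 2 (-0.68). The deacetylase HDAC2 (0.67, adjusted p = 0.000994) and the coactivator SNW1 (0.23, adjusted p = 0.0178) were higher, and under poly-A control scaling they differed by -0.18 and -0.63. SNW1 was not called without PK15 replicate 1 (0.20) or with its probe sets averaged (-0.0086). The dimmer SNW1 probe set lay near the floor, with means of 2.15 in OBGF400 and 2.39 in PK15.

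The genes whose profile over the 6 arrays was most like that of each of the 7 were found by the root mean square distance of log2 profiles, each centred on its own mean. For SFRP1 the nearest were COL1A2, LUM and CTSK, at distances of 0.097, 0.194 and 0.201. For DKK3 they were IL1R1, AEBP1 and CSRP2 (0.197 to 0.217), and for HEY2 they were TMEM26, AEBP1 and FBN1 (0.074 to 0.174). AEBP1 was thus near both DKK3 and HEY2. For FZD6 they were PKIB, ROPN1L and TSTD1 (0.145 to 0.275), and for LFNG they were RNF128, MT1A and CYP2C91 (0.091 to 0.139). For JAG1 they were SLC25A1, NDUFAF2 and CIT (0.065 to 0.114), and for RBPJ they were SAR1A, C14H10orf99 and LOC100737768 (0.058 to 0.082). With 2 lines, these distances mostly match the size of the difference between the lines.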

How the data were processed

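The deposited table gives log2 signals of 24123 probe sets on 6 arrays. Per the submitters' processing notes the package affy was used. How it corrected, summarised and normalized the signals was not stated in the labels or the table. RNA of 9 cultures per line was pooled into 3 samples, and 8 µg of each was labelled, per the labels' protocols. The 124 control probe sets were left out, and 23999 were kept. Symbols came from the platform annotation: 10069 probe sets had 1 symbol, 198 several and 13732 none. By Entrez number 9961 were found in RefSeq's Sscrofa11.1 gene table, which renamed 0.

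A gene was represented by its probe set of highest mean across the 6 arrays. OBGF400 and PK15 were compared in R 4.3.3 with limma 3.58.1 (lmFit, eBayes, two-sided) over 6765 genes, with Benjamini-Hochberg adjustment, and tables were made in Python 3.11.15. The fit was tested on simulated data. With 3 arrays a line, an exact permutation test of 1 gene cannot go below p = 0.1. The number of arrays limits the precision. Median SDs between arrays of a line were 0.229 for probe sets with means of 4 to 6 and 0.075 for those of 12 or more. The 7 genes and the gene lists were chosen with earlier results of these data known. Beside the 7 genes, the text names up to 3 called genes with the largest and 3 with the smallest difference in each list, measured Notch receptors, the 3 nearest profiles, and genes marked as named afterwards. Alternatives were an added 32, hybridization and poly-A control scaling, quantile normalization, averaging each gene's probe sets, a level filter, a trended and robust variance, a replicate block, and leaving out each array.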

Additional observations from a re-analysis of the deposited data

How the results depend on the processing

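Of the 7 differences, that of RBPJ turned to -0.13 under poly-A control scaling. Adding 32 or leaving out 1 array cannot turn a difference between arrays that do not overlap. The level filter kept 4 of the 7. Hybridization control scaling gave 10.70 for SFRP1, 9.85 for DKK3, -8.68 for FZD6, -2.01 for JAG1, -5.77 for LFNG, 1.55 for RBPJ and 10.27 for HEY2. Poly-A control scaling gave 9.02 for SFRP1, 8.17 for DKK3, -10.36 for FZD6, -3.69 for JAG1, -7.45 for LFNG and 8.59 for HEY2. With 32 added, SFRP1 was 7.52, DKK3 7.96, FZD6 -6.77, LFNG -4.17 and HEY2 6.52. Averaging each gene's probe sets gave 10.37 for SFRP1, -7.70 for FZD6, -1.17 for JAG1, -3.08 for LFNG, 0.88 for RBPJ and 5.63 for HEY2. Control scaling shifts every gene by a constant. Over all genes, 4487 were higher and 1259 lower with the hybridization controls, 763 higher and 5219 lower with the poly-A controls, and 1620 higher and 2492 lower as deposited. In the same order, 24 and 4 Wnt genes were higher and 6 and 25 lower with the hybridization and poly-A controls, and 16 and 4 Notch genes were higher and 2 and 17 lower. Above the median level 18 Wnt and 10 Notch genes were left. Of the Wnt genes 4 were called higher and 8 lower, and of the Notch genes 2 and 5. The matching counts over all genes were 1097 and 1744, out of 3382 genes kept by this filter. Under poly-A control scaling RHOA was -0.77, HDAC2 -0.18, SNW1 -0.63 and POFUT1 -0.33. Under hybridization control scaling CTNNBIP1 was 0.034, TNKS2 0.40, PSENEN 0.13, CIR1 0.011, NCOR1 0.19 and CTNNB1 0.40. Averaging its probe sets gave -0.0086 for SNW1. MAP3K7 (0.33, poly-A controls), DTX3L (-0.081) and JUN (-0.27, both hybridization controls) lost their calls. The cause of these changes beyond the construction of the alternatives was not tested.

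Deviations from the line's mean correlated at 0.039, 0.007 and 0.019 between same-numbered arrays of the lines. Between differently numbered arrays they correlated at -0.042 to 0.028. Such values cannot show whether same-numbered arrays share more than a number. With the replicate block 1478 genes were higher and 2304 lower, 5 Wnt genes higher and 11 lower, and 6 Notch genes higher and 4 lower, and the block, by its construction, left all differences as they were. MAP3K7, RHOA, DTX3L, SNW1 and NCOR1 were not called with it. Leaving out 1 array gave 1471 to 1575 genes higher and 2264 to 2441 lower. The 7 differences then ranged from 9.70 to 9.96 for SFRP1, 8.88 to 9.23 for DKK3, -9.75 to -9.27 for FZD6, -2.95 to -2.71 for JAG1, -6.73 to -6.52 for LFNG, 0.65 to 0.83 for RBPJ and 9.39 to 9.48 for HEY2.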
